A study of Sus scrofa with 4 samples.

Results

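The genes described here are 10 named for the subcortical maternal complex of the oocyte and for related NLRP proteins: OOEP, NLRP5, TLE6, KHDC3L, PADI6, NLRP2, NLRP8, NLRP9, NLRP13 and NLRP14. They were taken by name from an expression table of 35248 rows, and 5 of the 10 have a row under their own name: OOEP, PADI6, NLRP8, NLRP9 and NLRP13. The samples were porcine parthenogenetic embryos at the 4-cell stage, profiled by RNA sequencing with the Smart-seq2 method, 2 libraries in each group. The Bobcat339 group was exposed to 50 µM Bobcat339, a small molecule built on cytosine that serves to inhibit the TET dioxygenases, which oxidise methylated cytosine in DNA. The control group received DMSO, the solvent. Both groups were made by electrical activation of oocytes, with no sperm, and were held for 3 h with 7.5 µg/mL cytochalasin B and then kept for 48 h in PZM-3 medium, so their chromosomes are maternal only. How many embryos went into a library is not stated in the labels, and they do not say whether libraries of a group come from separate cultures. The p-values therefore reflect the spread among these 4 libraries, which may be technical.

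The subcortical maternal complex is a large protein assembly that forms in the growing mammalian oocyte and lies beneath the membrane of the egg and early blastomeres. Its core in the mouse is built from NLRP5, OOEP and TLE6, and KHDC3L in human (Khdc3 in the mouse) joins them; PADI6 and NLRP2 are associated proteins, and PADI6 is needed in the mouse for the cytoplasmic lattices of the egg. The transcripts are made during oocyte growth, stored, and lost as the embryo takes over transcription, which in the pig occurs around the 4-cell stage. NLRP proteins share a nucleotide-binding NACHT domain and leucine-rich repeats. Some of them, such as NLRP3, form inflammasomes in immune cells, whereas a branch of the family is expressed mainly in oocytes.

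The libraries held 14681221 and 13568525 counts in the Bobcat339 group and 14390560 and 13852262 in the control group. A floor of 3 counts is about the 1-sided 95% upper limit for a count of 0. It corresponds to 0.204 to 0.221 CPM, read counts scaled to a common library size. Counting intervals and floors given here cover counting error only, and the reads carry no molecular identifiers. The 95% intervals of log2 fold changes come from edgeR, the test used below, and also take in the spread between libraries. Markers of the labelled material were present: 17 of 20 listed oocyte and early embryo names averaged at least 1 CPM, with BMP15 at 4279 CPM and WEE2 at 4160 CPM. Of 17 cumulus and granulosa markers 6 did so, the most abundant being VCAN at 72 CPM and VIM at 39.8 CPM, with AMH listed at 0 in all libraries and FSHR at 1 count in total. The summed level of that list was 116 and 155 CPM in Bobcat339 embryos, against 122 and 136 CPM in control embryos. Of 9 blood and immune markers 4 did, with sums of 12.3 and 17.6 CPM in Bobcat339 embryos, against 14.3 and 14.5 CPM in control embryos. Neither sum separated the groups. Of the 9 cumulus and granulosa markers tested, 4 had a log2 fold change (Bobcat339 over control) above 0 and 5 below. The lowest was TNFAIP6, at 0.477 and 0.291 CPM in Bobcat339 embryos, against 1.72 and 1.57 CPM in control embryos. It had 4 to 24 counts per library and did not pass (log2 fold change −2.07, SE 0.71, edgeR adjusted p = 0.999). The control libraries differed from each other more than the Bobcat339 libraries did, with a median absolute log2 difference between replicates of 0.25 in the Bobcat339 group and 0.46 in the control group over 18481 tested rows.

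Per length of transcript, PADI6 and NLRP9 stood highest among the 5 members, OOEP came next, and NLRP13 and NLRP8 were lowest. The values for this order are the FPKM (fragments per kilobase of transcript, scaled to library size) that the authors deposited. PADI6 was at 229 and 234 FPKM in the Bobcat339 libraries and at 306 and 340 FPKM in the controls. Its mean was 277 ± 54.3 FPKM (SD, n = 4 libraries), which ranked 79th among 11153 tested rows that carry a name. An SD over n = 4 pools both groups and so takes in any difference between them. Within groups the SD of PADI6 was 3.51 FPKM (Bobcat339) and 23.9 FPKM (control). NLRP9 was at 213 and 235 FPKM in the Bobcat339 libraries and 190 and 266 FPKM in the controls (mean 226 ± 32.5, SD, n = 4; rank 109). The ranges of PADI6 and NLRP9 overlap, and PADI6 was the higher in 3 of the 4 libraries.

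OOEP was at 76.2 and 67.6 FPKM in the Bobcat339 libraries and 61.7 and 85.9 FPKM in the controls (mean 72.9 ± 10.5, SD, n = 4; rank 575). An unnamed row on the other strand, ENSSSCG00000004284, covers 790 of the 980 bases that the OOEP row spans. Reads from the shared bases cannot be assigned, so the level and rank of OOEP carry that limit. NLRP13 had a mean of 29.2 ± 11.6 FPKM (rank 1648) and NLRP8 a mean of 22.4 ± 2 FPKM (SD, n = 4 each; rank 2081). NLRP13 exceeded NLRP8 in all 4 libraries, by a ratio of 1.1 and 1.11 in the Bobcat339 libraries and 1.06 and 1.84 in the controls, but the ranges of the 2 genes over libraries overlap. The steps from NLRP9 to OOEP and from OOEP to NLRP13 held in each of the 4 libraries, with a ratio of at least 1.84.

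The length behind these levels matters for NLRP9. For OOEP, PADI6, NLRP8 and NLRP13 the FPKM follow from the counts and the length listed in the table. For NLRP9 they follow from 3021 bases, while the table lists 5967 bases. With the listed length NLRP9 would stand at 114 FPKM on average, below PADI6 in all 4 libraries and still above OOEP in all 4. The order of the 5 genes is the same on both scales, but PADI6 and NLRP9 separate on the second.

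**Figure D1:**
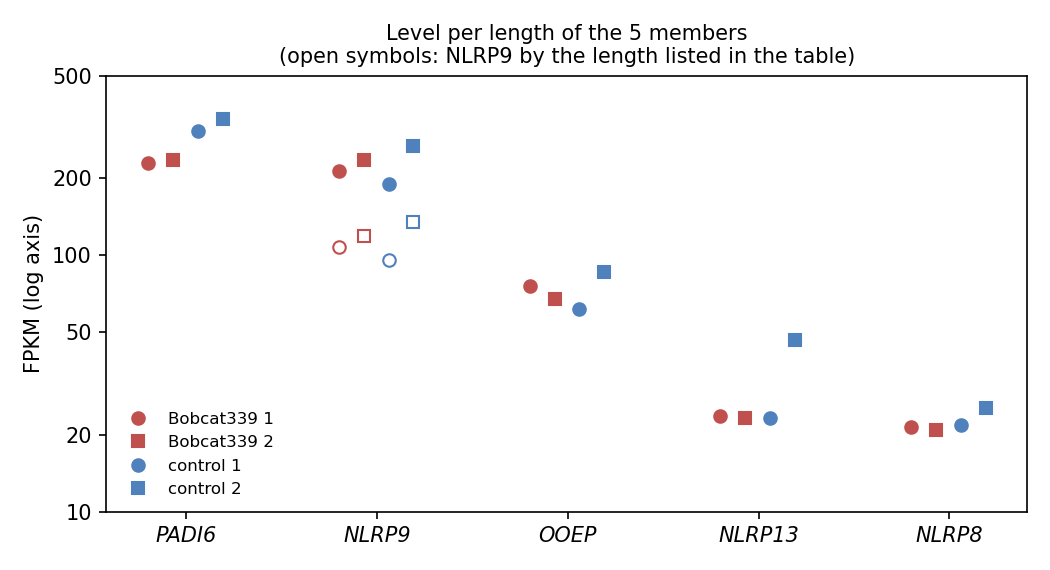
Deposited FPKM (log axis) of the 5 members in each library, circles for replicate 1 and squares for replicate 2, Bobcat339 left of control within each gene. Open symbols show NLRP9 recomputed with the listed length of 5967 bases, which lowers its mean to 114 FPKM; PADI6 and NLRP9 lead and NLRP13 and NLRP8 are lowest.

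None of the 5 members passed the test between Bobcat339 and control embryos, and neither did any other row. The comparison asks whether exposure to the inhibitor altered transcript levels. With edgeR's quasi-likelihood test over 18481 rows, 0 of the 5 members and 0% of all rows passed a Benjamini-Hochberg adjusted p of 0.05; the smallest adjusted p of any row was 0.343. Before adjustment 740 of the 18481 rows had p below 0.05 by edgeR, 252 of them higher and 488 lower in Bobcat339 embryos. That share is below 0.05, the share that the threshold admits where no row changes. It cannot show that no row changed, because the difference between the controls limits what the test can show. PADI6 was the 1 of the 5 members among these 740 rows. DESeq2 called 5 rows and limma-voom 0, with no member among them. The log2 fold change of the 5 members had a median of −0.17, against −0.02 over all rows tested, and was below 0 for 5 of 5 members and for 52.9% of all rows. In 3 members, PADI6, NLRP13 and NLRP8, both Bobcat339 libraries lay below both controls, which was so for 16.0% of all rows (29.3% with either direction). Levels below are TMM-normalised CPM. Each level is that of a whole library. Fewer embryos or cells with the transcript and less of it per cell therefore cannot be told apart. The labels also do not say how many embryos a library holds.

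PADI6 had the smallest unadjusted p of the 5. It encodes a peptidylarginine deiminase family member of the oocyte (ENSSSCG00000003484, chromosome 6: 75969886 to 75987096, plus strand; coordinates are as deposited and match Sscrofa11.1). Its level was 542 and 547 CPM in Bobcat339 embryos, against 746 and 796 CPM in control embryos, from 7515 to 11122 counts per library. The groups did not overlap, and the replicates of each were close together. Bobcat339 embryos averaged 545 ± 3.73 CPM, against a mean of 771 ± 35.8 CPM in control embryos (SD, n = 2 each). The log2 fold change was −0.50 (SE 0.23; 95% interval −0.99 to −0.01; edgeR adjusted p = 0.999). It was between −0.55 and −0.42 with any 1 library left out.

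In NLRP13 1 control library stood apart from the other 3 libraries. This NLRP gene of the chromosome 6 cluster (ENSSSCG00000024227, chromosome 6: 60287201 to 60337958, minus strand) was at 71.5 and 69.5 CPM in Bobcat339 embryos, against 72.4 and 140 CPM in control embryos. Control 1 lay close above the Bobcat339 libraries and control 2 alone stood high, with a counting interval of 134 to 146 CPM that the others' intervals (65.2 to 77 CPM) do not reach. The log2 fold change was −0.59 (SE 0.32; 95% interval −1.27 to 0.09; edgeR adjusted p = 0.999). Without control 2 it was −0.01.

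NLRP8, another NLRP gene of that cluster (ENSSSCG00000003315, chromosome 6: 60350622 to 60375307, plus strand), was at 66.8 and 64.1 CPM in Bobcat339 embryos, against 69.6 and 78 CPM in control embryos. All 4 libraries lay within 1.22-fold of each other, the narrowest range of the 5 members. The log2 fold change was −0.17 (SE 0.29; 95% interval −0.78 to 0.43; edgeR adjusted p = 0.999), and the counting intervals of Bobcat339 1 (62.6 to 71.1 CPM) and control 1 (65.3 to 74.2 CPM) overlap. Leaving out control 1 gave −0.25, and leaving out control 2 gave −0.06.

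In NLRP9 and OOEP the Bobcat339 libraries lay between the controls. NLRP9 (ENSSSCG00000003307, chromosome 6: 59949004 to 59973856, plus strand), an NLRP gene expressed in oocytes, was at 642 and 702 CPM in Bobcat339 embryos, against 591 and 796 CPM in control embryos. Its log2 fold change was −0.05 (SE 0.24; 95% interval −0.56 to 0.47; edgeR adjusted p = 0.999). OOEP, a KH-domain protein of the core complex (ENSSSCG00000004285, chromosome 1: 53006898 to 53007877, minus strand), was at 34.1 and 29.9 CPM in Bobcat339 embryos, against 28.4 and 38.1 CPM in control embryos. Its log2 fold change was −0.06 (SE 0.32; 95% interval −0.72 to 0.61; edgeR adjusted p = 0.999). OOEP rests on 397 to 532 counts per library, the fewest of the 5. The interval leaves room for a change of that width in either direction. Bases shared with a row on the other strand limit these counts too.

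**Figure D2:**
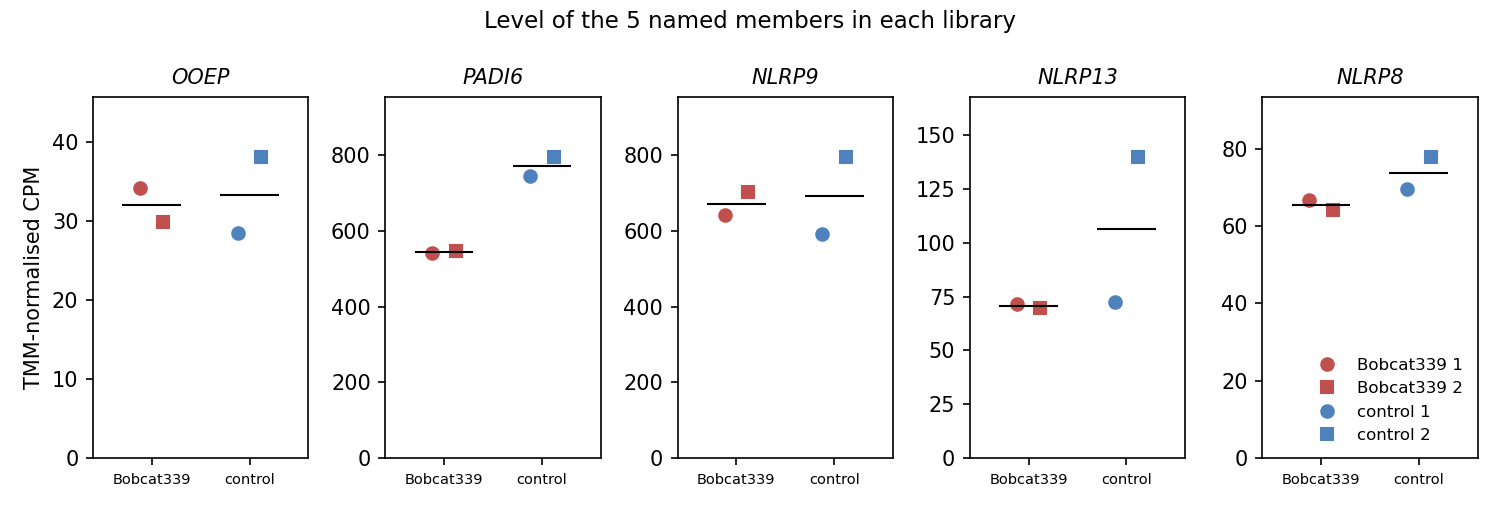
TMM-normalised CPM of the 5 members in each library (linear axes from 0, each gene on its own scale), Bobcat339 left and control right; circles are replicate 1, squares replicate 2, and lines the mean of 2. Both Bobcat339 libraries lie below both controls for PADI6, NLRP13 and NLRP8, and between them for NLRP9 and OOEP; control 2 is the highest library in each panel.

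Control 2 was the highest of the 4 libraries for 5 of 5 members, a pattern that was seen in the values first and is described without a test. Over all tested rows control 2 was highest at 29.9%, and at 29.3% of the 5151 rows that average at least as much as OOEP. Control 1 lay below control 2 by 0.95 (log2) in NLRP13, 0.43 in NLRP9, 0.42 in OOEP, 0.16 in NLRP8 and 0.09 in PADI6. The median log2 difference, control 1 minus control 2, was −0.41 over the members and −0.01 over all rows. In the Bobcat339 pair the same differences ran from −0.13 in NLRP9 to 0.19 in OOEP, with a median of 0.04. Summed over the 5 members, the level was 1357 and 1413 CPM in Bobcat339 embryos, against 1507 and 1849 CPM in control embryos.

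Marker lists of the embryo also differed between the 2 controls. The 18 tested oocyte and early embryo markers had a median log2 difference of −0.31, control 1 minus control 2, with 4 above 0 and 14 below, and summed to 17025 and 18967 CPM in Bobcat339 embryos, against 16970 and 21341 CPM in control embryos. The 11 tested genes of zygotic transcription had a median of 0.33 in the other direction, and summed to 2786 and 2755 CPM in Bobcat339 embryos, against 3531 and 2429 CPM in control embryos; control 1 was above control 2 in 8 of the 11 and below it in 3. The 2 most abundant, KLF17 and TFAP2C, stood at 0.52 and 0.55, while POU5F1, KLF5 and GATA3 stood at −0.37, −0.53 and −0.11. The part of these differences in the members' values was not tested.

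The comparison of the groups therefore depended on which control was kept. Without control 1, PADI6 (log2 fold change −0.55, edgeR adjusted p = 0.0189) and NLRP13 (−0.99, adjusted p = 0.000627) passed as lower, 2 of the 5 members, where 0.887% of all 20063 rows then tested passed as lower. Without control 2 no member passed, where 1.73% of 19999 rows passed as lower, and NLRP9 and OOEP changed sign, to 0.21 and 0.20. Of the 5 members PADI6 kept a log2 fold change of at least 0.42 below 0 whichever control was left out. A lone control in these fits is assumed to vary like the Bobcat339 pair.

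**Figure D3:**
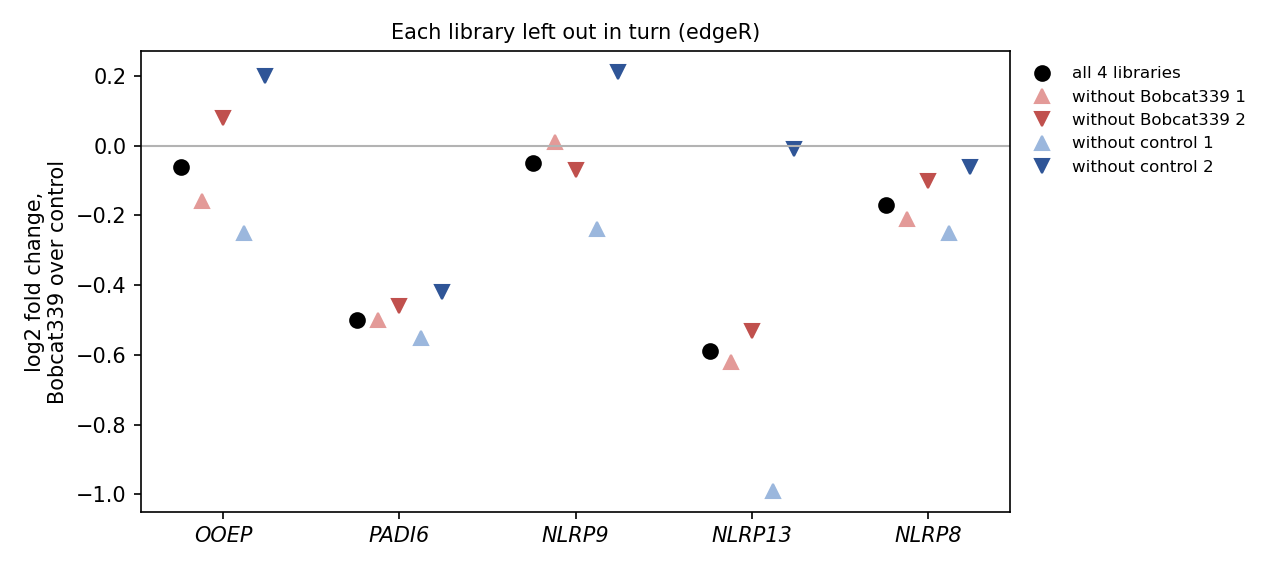
Log2 fold change of the 5 members, Bobcat339 over control, with all 4 libraries (black) and with each library left out in turn. PADI6 stays between −0.55 and −0.42, NLRP13 runs from −0.99 without control 1 to −0.01 without control 2, and NLRP9 and OOEP cross 0.

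For NLRP2, NLRP5, NLRP14, TLE6 and KHDC3L the table has no row of that name, and rows without a name that overlap the position of each gene in the Sscrofa11.1 RefSeq annotation were looked up instead. These rows are placed by position and are not members. Only 1 of the 7, ENSSSCG00000024588 on chromosome 2 (75538359 to 75542331, minus strand), is tied to its gene by the table itself, through the NCBI gene number of TLE6 in its description. That row was at 1.98 and 2.91 CPM in Bobcat339 embryos, against 4.01 and 6.16 CPM in control embryos, from 29 to 86 counts. Both Bobcat339 libraries lay below both controls, as at 16.0% of all tested rows. The log2 fold change was −1.06 (SE 0.46, 95% interval −2.02 to −0.09), and the row did not pass (edgeR adjusted p = 0.999). Without control 1 its log2 fold change was −1.33, and without control 2 it was −0.69. It partly overlaps the row named TLE2, a related corepressor gene, on the other strand. A second row in the TLE6 interval, ENSSSCG00000033090, was at 5.18 and 4.66 CPM in Bobcat339 embryos, against 4.3 and 7.37 CPM in control embryos, and there the groups overlapped (log2 fold change −0.25, SE 0.41; −0.58 without control 1 and 0.23 without control 2).

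The interval of NLRP5, the scaffold protein of the core in the mouse, holds 2 short rows on the plus strand of chromosome 6. ENSSSCG00000031929 (60381491 to 60381740, 249 bases counted) was at 6.2 and 4.66 CPM in Bobcat339 embryos, against 7.24 and 8.52 CPM in control embryos. ENSSSCG00000028861 (60403403 to 60412523, 684 bases counted) was at 8.31 and 8.6 CPM in Bobcat339 embryos, against 10.4 and 18.4 CPM in control embryos. In each of the 2 rows both Bobcat339 libraries lay below both controls, as at 16.0% of all tested rows. The log2 fold changes of the 2 rows were −0.54 (SE 0.38) and −0.77 (SE 0.37), and neither row passed (edgeR adjusted p = 0.999 each). The first ran from −0.76 without Bobcat339 1 to −0.30 without Bobcat339 2. The second was −0.27 without control 2 and −1.12 without control 1, where it passed (edgeR adjusted p = 0.0189). Per length they averaged 26.6 ± 6.49 and 16.7 ± 7.05 FPKM (SD, n = 4), values near those of NLRP8 and NLRP13, but the rows cover small parts of the gene.

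The interval of NLRP2 is overlapped over 16879 bases by ENSSSCG00000003277 (chromosome 6: 59186265 to 59208337, plus strand), which had 17 to 49 counts per library. Its level was 1.5 and 1.24 CPM in Bobcat339 embryos, against 2.01 and 3.51 CPM in control embryos (log2 fold change −1.0, SE 0.54, edgeR adjusted p = 0.999). Leaving out control 1 gave −1.35, and leaving out control 2 gave −0.52. Both Bobcat339 libraries of this row lay below both controls, as at 16.0% of all tested rows. NLRP14, an NLRP protein required in mouse eggs for early development, has a RefSeq interval that overlaps the locus XLOC_033762 (chromosome 9: 2536917 to 2558155, minus strand). Only 7893 bases of the locus lie in that interval, so its level cannot be taken as that of NLRP14. This locus was the most even row of the set, at 18.5 and 18.4 CPM in Bobcat339 embryos, against 18.5 and 17.5 CPM in control embryos (log2 fold change 0.03, SE 0.32; 95% interval −0.64 to 0.71). It is also the only one of the 7 in which control 2 was the lowest library.

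The interval of KHDC3L is overlapped over 2128 bases by ENSSSCG00000004284 (chromosome 1: 52996947 to 53007687, plus strand). This row had 9 and 6 counts in the Bobcat339 libraries and 2 and 16 counts in the controls. It was too low to be tested. That is 0.613 and 0.437 CPM in Bobcat339 embryos, against 0.143 and 1.15 CPM in control embryos, and the exact Poisson intervals of the controls (0.0174 to 0.518 and 0.655 to 1.86 CPM) do not meet each other. The same row runs into the OOEP row on the other strand, over 790 bases. Smart-seq2 does not mark the strand, so reads from the shared bases cannot be assigned. The counts of ENSSSCG00000004284 cannot be taken as the level of KHDC3L.

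**Figure D4:**
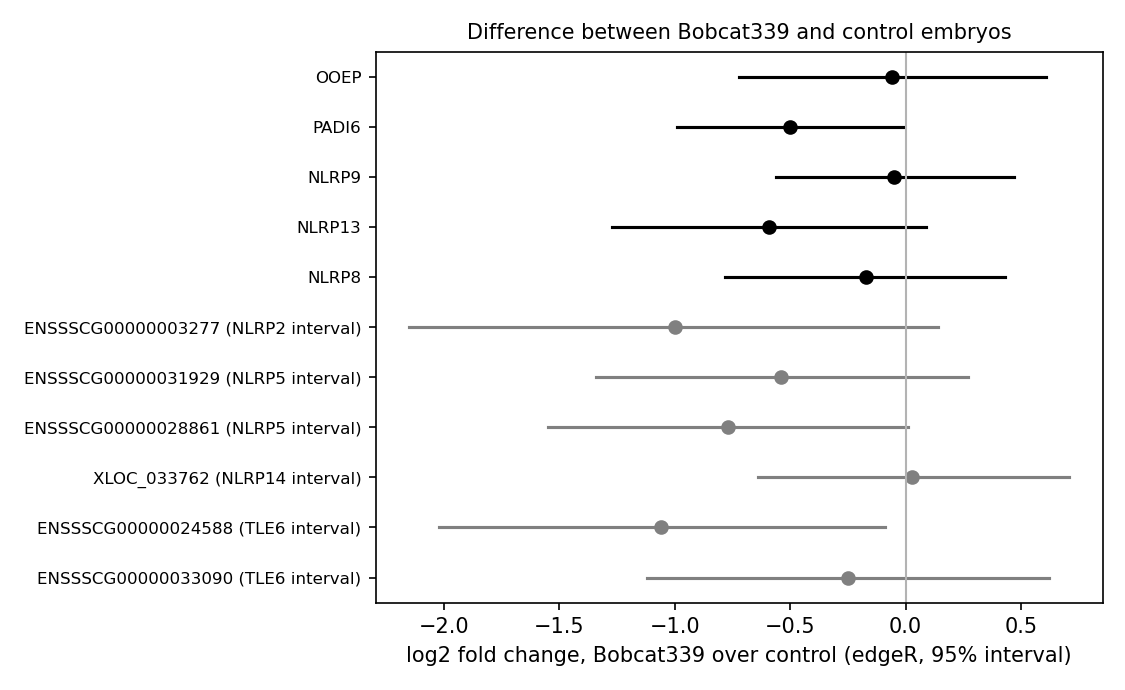
Log2 fold change of Bobcat339 over control with its 95% interval from edgeR. Black marks the 5 members, and grey the 6 tested unnamed rows that overlap the RefSeq intervals of NLRP2, NLRP5, NLRP14 and TLE6, some only in part. Points of 10 of these 11 rows lie below 0. The exception is XLOC_033762, which partly overlaps the NLRP14 interval, at 0.03. Over all tested rows 52.9% lie below 0. No row passed the test over all rows with all 4 libraries.

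NLRP9, NLRP13 and NLRP8 sit in 1 stretch of chromosome 6 with other NLRP genes, 464 kb from the start of NLRP9 to the end of the second NLRP5 row. The stretch holds 12 rows, of which 7 were tested, and none of the other 5 exceeded 10 counts in a library. NLRP13 and NLRP8 lie on opposite strands with 12663 bases between them. Between NLRP9 and NLRP13 lies NLRP11 (ENSSSCG00000003314), at 265 and 280 CPM in Bobcat339 embryos against 279 and 420 CPM in control embryos, with a log2 fold change of −0.36 (SE 0.27). That value was −0.62 without control 1, where it passed (edgeR adjusted p = 0.0151), and −0.00 without control 2. The adjoining locus XLOC_026203 overlaps the RefSeq interval of NLRP4 and had a log2 fold change of −0.09 (SE 0.27). All 7 tested rows of the stretch had their highest level in control 2, as did 29.9% of all tested rows. All 7 had a fitted log2 fold change below 0, as did 52.9% of all tested rows, and 0 of them passed (edgeR). Without control 2 the fold changes of NLRP9 and XLOC_026203 were above 0 (0.21 and 0.15). As for NLRP9, the deposited FPKM of NLRP11 and XLOC_026203 follow from lengths (3266 and 4271 bases) shorter than those listed (5397 and 9556 bases). NLRP genes are similar in sequence, so reads may have been shared or discarded between neighbours in the counting.

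**Figure D5:**
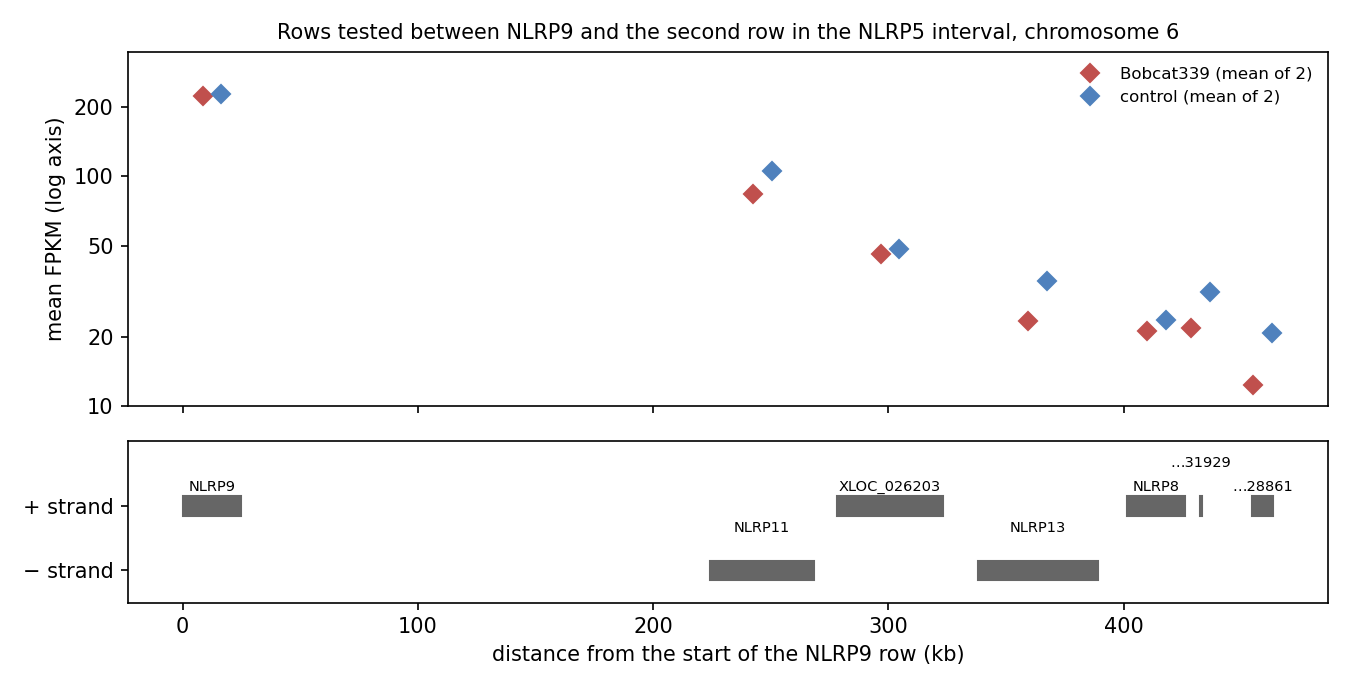
The 7 tested rows of the NLRP stretch of chromosome 6: mean FPKM of 2 libraries (log axis) for Bobcat339 and control above, and the position and strand of each row below, as distance in kb from the start of NLRP9 (the last 2 rows are those of the NLRP5 interval). Levels are highest at NLRP9 (224 FPKM in Bobcat339 embryos, 228 FPKM in control embryos), and the Bobcat339 mean lies below the control mean at each row.

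Among other genes of the complex and of the oocyte NLRP branch, 4 of 7 listed names had a row. The names without a row include KHDC3, the mouse name of the member KHDC3L. The 3 tested had 0 called and a median log2 fold change of −0.36. That median was −0.62 without control 1, −0.57 without Bobcat339 2 and −0.20 without control 2. They were NLRP11, NLRP7 and DPPA5, which encodes a KH-domain protein and lies beside OOEP on chromosome 1. NLRP7, matched by the NCBI number of its row (ENSSSCG00000003286) and a gene whose human form is linked to hydatidiform mole, was at 20.1 and 19.7 CPM in Bobcat339 embryos, against 29.2 and 35.9 CPM in control embryos. The NLRP7 groups did not overlap, with Bobcat339 the lower, as at 16.0% of all tested rows (log2 fold change −0.71, SE 0.32, edgeR adjusted p = 0.999). DPPA5 was at 209 and 304 CPM in Bobcat339 embryos, against 300 and 340 CPM in control embryos (log2 fold change −0.32, SE 0.27), and its fold change was −0.08 without Bobcat339 1 and −0.57 without Bobcat339 2. ZBED3, another component described in the mouse, had 3 to 8 counts per library and was not tested.

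The inflammasome and immune branch was low. Of 17 listed genes 15 had a row, 8 were tested and 0 were called, with a median log2 fold change of −0.14. That median was −0.00 without control 1, −0.35 without Bobcat339 2, −0.45 without control 2, and −0.91 over the rows with at least 5 CPM in 2 libraries. The list summed to 33.9 and 30.8 CPM in Bobcat339 embryos, against 53.5 and 33.3 CPM in control embryos. The inflammasome adaptor PYCARD had at most 6 counts, and CASP1 and IL1B at most 4, in any library. The rows with the highest mean were NLRX1 (10.8 CPM, log2 fold change −0.96, SE 0.39), whose description in the table names the transporter gene ABCG4, and NLRP1 (9.28 CPM, −0.91, SE 0.38). In none of the 8 was control 2 the highest library; in both NLRX1 and NLRP1 control 1 was.

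Of the paralogs of TLE6 and PADI6, 8 of 10 listed names were tested and 0 were called (median log2 fold change −0.10). The most abundant were TLE2 at 44.3 CPM (−0.09) and PADI4 at 23.7 CPM (−0.05). The 14-3-3 and actin partners, 11 tested of 12, had 0 called and a median of 0.11, with 9 above 0; YWHAQ (533 CPM, 0.09) and YWHAB (500 CPM, 0.25) encode 14-3-3 proteins. The oocyte transcription regulators, 6 tested of 7, had 0 called and a median of 0.00, with TAF4B at 225 CPM (0.29) and LHX8 at 168 CPM (0.04). Of 5 genes named for DNA methylation 4 were tested and 0 called (median −0.05); these included the maintenance methyltransferase DNMT1 (3164 CPM, −0.16) and UHRF1 (42.2 CPM, 0.38), which recruits it to hemimethylated DNA. With each library left out in turn, the median ran from −0.25 to −0.02 for the paralogs, from 0.06 to 0.15 for the 14-3-3 and actin partners, from −0.25 to 0.14 for the transcription regulators and from −0.14 to 0.02 for the DNA methylation genes.

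The named genes whose levels over the 4 libraries were most like those of NLRP9 were CHP1, TSPYL1 and WWP2, with a root mean square difference of centred log2 CPM of 0.007, 0.016 and 0.017. For PADI6 they were PSMD3, TBCB and ND6, at 0.019, 0.027 and 0.036. The comparison ran over 4 libraries and 3201 named rows with a mean of at least 50 CPM. PSMD3, a proteasome subunit, was at 241 and 244 CPM in Bobcat339 embryos, against 322 and 348 CPM in control embryos (edgeR adjusted p = 0.999).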

How the data were processed

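The authors deposited 1 table with raw read counts per row, whole numbers with a different total in each library, and FPKM per library, each named so per the file headers. The authors also deposited a length per row, whose definition is not stated; for 59.4% to 59.6% of rows with counts the FPKM follow from it within 0.5%. Per the submitters' processing notes, the tools were HISAT2 2.0.5, DESeq2 1.16.1, HTSeq and Trimmomatic, with no role given, and the build was Sscrofa10.2. Of 14155 symbols compared, 98.8% lie over their namesake in Sscrofa11.1 (RefSeq table), so coordinates are printed as deposited and read as Sscrofa11.1. Whether counting used the strand is not stated, so overlapping genes on opposite strands cannot be told apart.

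Members were matched to the name column; list genes also by Ensembl identifier (1088 rows) or NCBI number (693 rows). The members and lists were chosen with earlier results of these data known. Each library was taken as 1 sample: the chi-square per row was 12.47 between the Bobcat339 pair and 48.16 between the control pair, above counting noise. Counts were tested with edgeR 4.0.16 (R 4.3.3), using TMM, filterByExpr (minimum count 10), glmQLFit and glmQLFTest over 18481 rows, Benjamini-Hochberg at 0.05. The script was tested on simulated data. Standard errors and 95% intervals come from the log2 fold change and the F statistic; differences between replicates of a list used log2(CPM + 0.5). Alternatives were DESeq2 1.42.0, limma-voom (limma 3.58.1), other scalings and filters, thinning, a replicate block and each library left out. Measurement columns of no sample number 0.

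Genes named in the text are the 10 members, the 2 most abundant of each other list (of marker lists only those printed), and for the most abundant member and the one with the smallest p the 3 named genes of nearest profile. The unnamed rows at member positions, the NLRP stretch, NLRP7, ZBED3, PYCARD, CASP1, IL1B, POU5F1, KLF5, GATA3, AMH, FSHR and TNFAIP6 were chosen after their values were seen.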

Additional observations from a re-analysis of the deposited data

How the results depend on the processing

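With 2 libraries a group the fit has 2 residual degrees of freedom per row. The edgeR p-values and intervals use a larger total, because edgeR borrows information on spread across rows. The difference between the controls limits what the test can show. The count of rows passing stayed at 0 under DESeq2 size factors, library totals only, both other filters, thinning, removal of the 50 most abundant rows, limma-voom and an adjusted p of 0.01. DESeq2 gave 5. With each library left out it ranged from 0 to 586 rows (494 without control 2), and the members passing ranged from 0 to 2. The median log2 fold change of the members ranged from −0.25 without control 1 to −0.01 without control 2, within the spread of the list between libraries (SD 0.21). Of 65 refitted values of the 5 members 61 kept their sign. NLRP9 ran from −0.24 without control 1 to 0.21 without control 2 and was also positive without Bobcat339 1 (0.01); OOEP became positive without Bobcat339 2 (0.08) and without control 2 (0.20). Among unnamed rows, examined after the data were seen, ENSSSCG00000033090 ran from −0.58 without control 1 to 0.23 without control 2, and XLOC_026203 from −0.28 to 0.15 in the same fits (0.04 without Bobcat339 1). The cause was not tested. The medians of the other lists moved as well; their values with a library left out stand beside each list, and the paralogs' median was −0.30 over rows with at least 5 CPM in 2 libraries. NLRP11 (adjusted p = 0.0151), NLRP7 (0.0474) and the row ENSSSCG00000028861 (0.0189) each passed in 1 of 13 refits, by edgeR without control 1.

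With the replicate number as a block 44 rows and 0 members passed, and the median of the members stayed at −0.17. Replicates 1 of the groups deviated together with an r of 0.159 across 18481 rows, from a single pair, so the numbers were not taken to pair the samples.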
